A study of Mus musculus with 7 samples.

Results

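GLUT4 (Slc2a4) and 9 genes of its vesicle trafficking machinery were examined in mature white adipocytes with and without free fatty acid receptor 2 (FFA2). The genes were taken by symbol from the table of counts per gene, which holds 57010 gene identifiers, and all 10 were found and had enough counts to be tested. They are Slc2a4, Lnpep, Sort1, Tbc1d4, Tbc1d1, Aspscr1, Rhoq, Vamp2, Stx4a and Snap23. RNA was sequenced from perigonadal adipocytes, freed by collagenase, of male littermates that had been housed together on Teklad LM-485 normal chow without other treatment and were 20 weeks old, in 3 libraries of the genotype FFA2 fl/fl and 4 of Adipoq-F2-KO. The labels list the libraries as separate samples without saying that each is a mouse of its own, so p-values measure the spread between these libraries. Mice of both genotypes carry the floxed FFA2 alleles, and the Adipoq-F2-KO mice carry in addition a Cre transgene under the adiponectin promoter, so that deletion is restricted to cells in which that promoter is active, while other cells of the fat pad keep the receptor. The controls carry no Cre, so that an effect of the transgene and one of the deletion cannot be told apart. The comparison asks how the transcripts of the glucose transport machinery differ at baseline, without a dietary challenge.

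In fat and muscle, GLUT4 is the glucose transporter that answers to insulin. Without insulin it is held inside the cell in small storage vesicles, and insulin signaling through AKT inactivates the brakes on these vesicles, so that Rab GTPases, the exocyst tether and SNARE proteins can dock and fuse them with the plasma membrane. The amount of GLUT4 at the cell surface is therefore set largely by protein movement, which counts of RNA do not measure.

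Total counts per library lay between 30478997 and 39992605. Ffar2, the targeted gene, had 1404, 1346 and 1094 counts in FFA2 fl/fl libraries 1 to 3 and 67, 38, 48 and 76 counts in Adipoq-F2-KO libraries 1 to 4, and its log2 fold change of -4.36 (standard error 0.22, edgeR adjusted p = 7.97e-06) stayed called whichever of the 7 libraries was left out. The libraries also differed in markers of cell types. The sum of 18 adipocyte markers was 66222 to 71059 normalized CPM (counts scaled to a common library total with TMM factors) in FFA2 fl/fl and 48906 to 61556 in Adipoq-F2-KO, with 17 of the 18 below 0 in log2 fold change, a median of -0.30 and 0 of them called by edgeR. The sum of 22 macrophage markers was 620 to 809 against 927 to 1119, with 20 of the 21 tested above 0 and 2 called higher. The sum of 15 endothelial markers was 1568 to 2051 against 2112 to 3330, with 15 of 15 above 0 and 0 called. These 3 sums did not overlap between genotypes, and no defining marker of these 3 lists was at 0. Of all 17039 tested genes, 49.6% were below 0, 0.798% were called higher and 0.217% lower. Taken singly, 1486 of them lay below all controls in every Adipoq-F2-KO library and 1510 lay above. Exact permutation tests (two-sided) gave p = 0.0286 for the adipocyte and macrophage sums and p = 0.114 for the endothelial sum. Genes of the mitochondrial chromosome took 4.41% to 5.77% of the counts in FFA2 fl/fl and 6.61% to 10.3% in Adipoq-F2-KO, also without overlap, and their part in the results below was not tested beyond leaving these genes out. Adipoq-F2-KO library 4 was the extreme library, with the lowest adipocyte sum, the highest macrophage and endothelial sums and the highest mitochondrial share. Sums of fibroblast progenitor (1332 to 1699 against 1687 to 2039), mesothelial (10.9 to 58.4 against 12.0 to 15.4), skeletal muscle (73.4 to 87.7 against 52.8 to 85.2), epididymal and germ cell (0 to 3.25 against 1.4 to 79.0), erythroid (97.6 to 224 against 209 to 372) and T and B cell markers (2.03 to 21.3 against 2.06 to 12.5) overlapped. The muscle markers Ckm and Tnnc2 were at 0 in every library, as were the epididymal markers Lcn5 and Spink11. In bulk RNA, fewer adipocytes and less RNA per adipocyte cannot be told apart.

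Transcripts of Rhoq, the small GTPase TC10, fell to 74.8% of the FFA2 fl/fl mean, and this was the 1 member of 10 called (edgeR's quasi-likelihood test, Benjamini-Hochberg adjusted p under 0.05 over 17039 genes), where 1.02% of all tested genes were called and 0.217% were called lower. Slc2a4 stood at 78.2% and Stx4a, the SNARE of the plasma membrane, at 76.7% of the FFA2 fl/fl mean, and neither passed the threshold. Estimates were below 0 for 8 members and above 0 for 2 (Tbc1d1 and Snap23), where 49.6% of all tested genes were below 0. The members' median log2 fold change was -0.12, against 0.00 over all tested genes. At an unadjusted p under 0.05, 3 members were lower and 0 higher, where 7.37% of all genes were lower. In 4 members (Slc2a4, Rhoq, Vamp2 and Stx4a), each Adipoq-F2-KO library lay below each FFA2 fl/fl library, a pattern held by 8.72% of all tested genes.

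**Figure D1:**
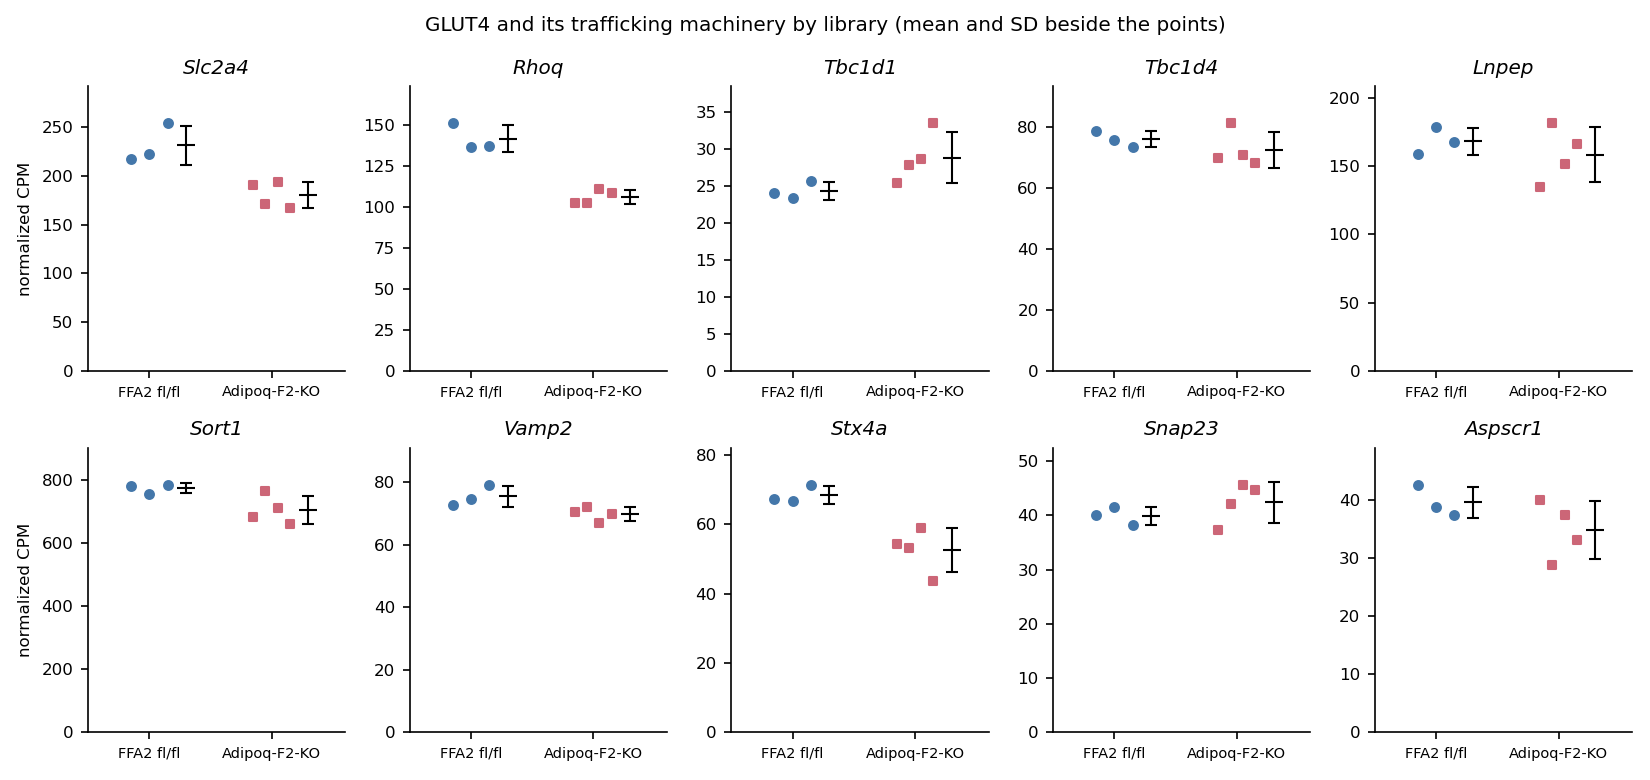
Normalized CPM (vertical axes, each starting at 0) of the 10 members in the 3 FFA2 fl/fl libraries (circles) and 4 Adipoq-F2-KO libraries (squares), with the mean and SD beside the points. The genotypes do not overlap for Slc2a4, Rhoq, Vamp2 and Stx4a, all of them lower in Adipoq-F2-KO, while the other 6 members overlap.

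The sequences just before the transcription start are shown for Rhoq and Stx4a, which had the lowest estimates among the members, and for Rhoj and Slc2a1, the close relatives of Rhoq and Slc2a4 that were called higher. They are the 250 bases upstream of a RefSeq start in GRCm38.p6, written 5′ to 3′ on the gene's strand, at chr17:86962861-86963110 (Rhoq), chr7:127841558-127841807 (Stx4a), chr12:75308063-75308312 (Rhoj) and chr4:119108495-119108744 (Slc2a1), all on the + strand. Capitals mark a GC box (GGGCGG) or a CCAAT box (CCAAT) on either strand.
Rhoq: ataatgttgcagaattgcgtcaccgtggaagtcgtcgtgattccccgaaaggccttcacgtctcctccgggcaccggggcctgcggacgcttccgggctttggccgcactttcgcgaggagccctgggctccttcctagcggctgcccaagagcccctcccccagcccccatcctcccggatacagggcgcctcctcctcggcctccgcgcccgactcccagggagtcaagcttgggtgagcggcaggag
Stx4a: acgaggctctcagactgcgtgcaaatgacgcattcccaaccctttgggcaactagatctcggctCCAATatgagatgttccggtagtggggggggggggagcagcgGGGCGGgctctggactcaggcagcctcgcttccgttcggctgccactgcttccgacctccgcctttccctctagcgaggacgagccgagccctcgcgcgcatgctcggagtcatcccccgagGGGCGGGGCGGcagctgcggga
Rhoj: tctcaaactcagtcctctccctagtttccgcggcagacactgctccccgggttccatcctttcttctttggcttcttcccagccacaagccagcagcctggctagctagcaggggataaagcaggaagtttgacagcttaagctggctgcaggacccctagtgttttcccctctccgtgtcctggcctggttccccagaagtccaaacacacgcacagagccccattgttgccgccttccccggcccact
Slc2a1: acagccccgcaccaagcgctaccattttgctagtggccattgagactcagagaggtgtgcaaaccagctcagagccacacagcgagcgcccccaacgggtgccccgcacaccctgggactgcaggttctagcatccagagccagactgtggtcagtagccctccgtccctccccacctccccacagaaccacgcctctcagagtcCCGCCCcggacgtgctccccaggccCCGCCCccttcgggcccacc
The windows of Rhoq and Rhoj hold neither box. The Stx4a window holds 3 GC boxes, of which the pair nearest the start overlaps, and 1 CCAAT box. The Slc2a1 window holds 2 GC boxes, both on the opposite strand. Over all 32851 windows of this length, 32.7% hold a GC box and 33.8% a CCAAT box. The E-box CACGTG (6.02% of windows) and the TATA box TATAAA (12.4%) are in none of these 4. GC content is 67.2% for Rhoq, 66.4% for Stx4a, 58.0% for Rhoj and 66.4% for Slc2a1, against a median of 52.4%. Of the 10 members, 7 had a window in the RefSeq table, and Slc2a4, Sort1 and Vamp2 were not in it.

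Slc2a4 encodes the transporter itself, and its transcript was the second most abundant of the members. The FFA2 fl/fl libraries 1 to 3 held 217, 222 and 254 normalized CPM, and the Adipoq-F2-KO libraries 1 to 4 held 191, 172, 193 and 167. All 4 Adipoq-F2-KO libraries were thus lower than the lowest control, and library 4, with the lowest adipocyte sum, was the lowest. The means were 231 ± 19.9 (SD, n = 3) and 181 ± 13.3 (SD, n = 4) normalized CPM. The log2 fold change was -0.35 (standard error 0.09, 95% interval -0.56 to -0.15), and it did not pass the adjusted threshold (edgeR adjusted p = 0.0980). It was -0.27 without FFA2 fl/fl library 3, the highest. DESeq2 called it (adjusted p = 0.0159), as it did 5.77% of all tested genes, and so did edgeR when all 28515 genes with at least 1 count were kept (adjusted p = 0.0431), a filter under which 4.92% were called. The gene lies on chromosome 11, from 69833365 to 69839014 on the - strand in the coordinates of the counted table, which differ from those of GRCm38.

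Lnpep encodes the insulin-regulated aminopeptidase IRAP, a membrane protein that travels in the same vesicles as GLUT4. It held 159, 179 and 167 normalized CPM in FFA2 fl/fl and 135, 181, 151 and 166 in Adipoq-F2-KO. The highest and the lowest library were both Adipoq-F2-KO, and the genotypes overlapped. The log2 fold change was -0.09 (95% interval -0.33 to 0.15, edgeR adjusted p = 0.713). Sort1 encodes sortilin, a sorting receptor with which the storage vesicles are formed, and it was the most abundant member. It held 781, 755 and 784 normalized CPM in FFA2 fl/fl and 681, 765, 710 and 660 in Adipoq-F2-KO. Library 2 of Adipoq-F2-KO lay within the range of the controls and the other 3 lay below it (log2 fold change -0.14, 95% interval -0.33 to 0.06, edgeR adjusted p = 0.448). The Adipoq-F2-KO mean was 91.0% of the control mean for Sort1 and 94.1% for Lnpep.

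The proteins that hold the vesicles back came next. Tbc1d4 encodes AS160, a Rab GTPase-activating protein that AKT phosphorylates. It held 78.6, 75.7 and 73.5 normalized CPM in FFA2 fl/fl and 69.8, 81.2, 70.7 and 68.1 in Adipoq-F2-KO, where library 2 was above all controls and the others below them (log2 fold change -0.07, 95% interval -0.27 to 0.13, edgeR adjusted p = 0.740). Its paralog Tbc1d1, better known from muscle, was the least abundant member. It held 24, 23.3 and 25.7 normalized CPM against 25.4, 27.9, 28.6 and 33.5. Of the Adipoq-F2-KO libraries, 3 were above all controls and library 1 was within their range (log2 fold change 0.24, 95% interval -0.01 to 0.50, edgeR adjusted p = 0.300). Aspscr1 encodes TUG, a tether that retains the vesicles inside the cell until insulin causes its cleavage. Its levels of 42.7, 38.8 and 37.4 normalized CPM against 40.1, 28.8, 37.5 and 33.2 overlapped (log2 fold change -0.18, 95% interval -0.45 to 0.09, edgeR adjusted p = 0.465).

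Rhoq (TC10) sits in lipid rafts of the plasma membrane, where it is activated by a branch of insulin signaling that does not pass through AKT, and it recruits the exocyst. The FFA2 fl/fl libraries held 5655, 5409 and 4687 counts, which were 151, 136 and 137 normalized CPM. The Adipoq-F2-KO libraries held 4083, 3362, 4003 and 3190 counts, which were 102, 102, 111 and 108 normalized CPM. In normalized CPM the genotypes were well apart, with a gap from 111 to 136 that exceeded the range within Adipoq-F2-KO. On this scale library 4 of Adipoq-F2-KO was not the lowest. The means were 142 ± 8.21 (SD, n = 3) and 106 ± 4.27 (SD, n = 4) normalized CPM. Its log2 fold change was -0.42 (standard error 0.08, 95% interval -0.60 to -0.24, edgeR adjusted p = 0.0458). An exact permutation test on normalized CPM, also two-sided, gave p = 0.0286, the smallest that 3 against 4 libraries allow, before any correction. Rhoq stayed called when the mitochondrial genes and the most abundant gene were left out before normalization (edgeR adjusted p = 0.0455). The call rested on all libraries but 1. It was kept without Adipoq-F2-KO library 4 (edgeR adjusted p = 0.0412), and it was lost without FFA2 fl/fl library 1 (0.249), 2 (0.0865) or 3 (0.167) and without Adipoq-F2-KO library 1 (0.0652), 2 (0.0870) or 3 (0.0691), while the log2 fold change stayed between -0.45 and -0.37. Rhoq lies on chromosome 17, from 87270510 to 87307497 on the + strand in the table's coordinates. Pigf, on the opposite strand, shares 312 bases (7.52%) of its exons and held 26 to 44 counts per library. Whether reads were counted by strand is not stated.

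Of the 3 SNARE genes, Stx4a and Vamp2 were below the controls in every Adipoq-F2-KO library, by unequal amounts. Vamp2 encodes the vesicle SNARE that GLUT4 vesicles carry. It held 72.6, 74.7 and 79.2 normalized CPM in FFA2 fl/fl and 70.5, 72.2, 66.8 and 69.8 in Adipoq-F2-KO, so that the genotypes were parted by only the step from 72.2 to 72.6 (log2 fold change -0.11, 95% interval -0.29 to 0.07, edgeR adjusted p = 0.507). Stx4a encodes syntaxin 4, its partner in the plasma membrane. It held 67.3, 66.7 and 71.4 normalized CPM in FFA2 fl/fl and 54.3, 53.2, 59.0 and 43.7 in Adipoq-F2-KO. Library 4 was the lowest here, and the other 3 were also below all controls. The log2 fold change was -0.38 (standard error 0.11, 95% interval -0.62 to -0.15, edgeR adjusted p = 0.108), and it was -0.30 without library 4. DESeq2 called it (adjusted p = 0.0356), as did edgeR on genes with at least 1 count (adjusted p = 0.0290). Snap23 encodes the second SNARE of the plasma membrane. Its 40.1, 41.5 and 38.1 normalized CPM against 37.3, 42.0, 45.7 and 44.6 overlapped (log2 fold change 0.09, 95% interval -0.13 to 0.31, edgeR adjusted p = 0.693).

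Levels can be compared between genes only per length, and for this TPM (transcript levels scaled by exon length to the same total in each library) were computed. In FFA2 fl/fl adipocytes the level was 318 ± 17.5 TPM (SD, n = 3) for Sort1, 207 ± 21.1 for Slc2a4, 106 ± 9.01 for Rhoq, 90.1 ± 5.60 for Stx4a, 61.6 ± 3.67 for Vamp2, 36.9 ± 1.04 for Lnpep, 30.8 ± 1.65 for Tbc1d4, 28.9 ± 0.843 for Snap23, 25.9 ± 2.30 for Aspscr1 and 10.2 ± 0.786 for Tbc1d1. Sortilin and GLUT4 transcripts were thus well above those of the brakes and of the target SNARE Snap23. Of the neighbours in this order, the libraries overlapped only between Tbc1d4 and Snap23 and between Snap23 and Aspscr1. In Adipoq-F2-KO the order was the same save that Snap23 (28.3 ± 1.93 TPM, SD, n = 4) stood before Tbc1d4 (27.2 ± 3.32), a pair that overlapped. Rhoq (73.2 ± 2.31 TPM) and Stx4a (64.0 ± 9.66) overlapped there, as did Stx4a and Vamp2 (52.7 ± 3.78), Lnpep and Snap23, and Tbc1d4 and Aspscr1. In TPM, unlike in normalized CPM, Adipoq-F2-KO library 4 was the lowest for Rhoq (70.1, against 73.2, 73.8 and 75.6 in libraries 1 to 3).

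**Figure D2:**
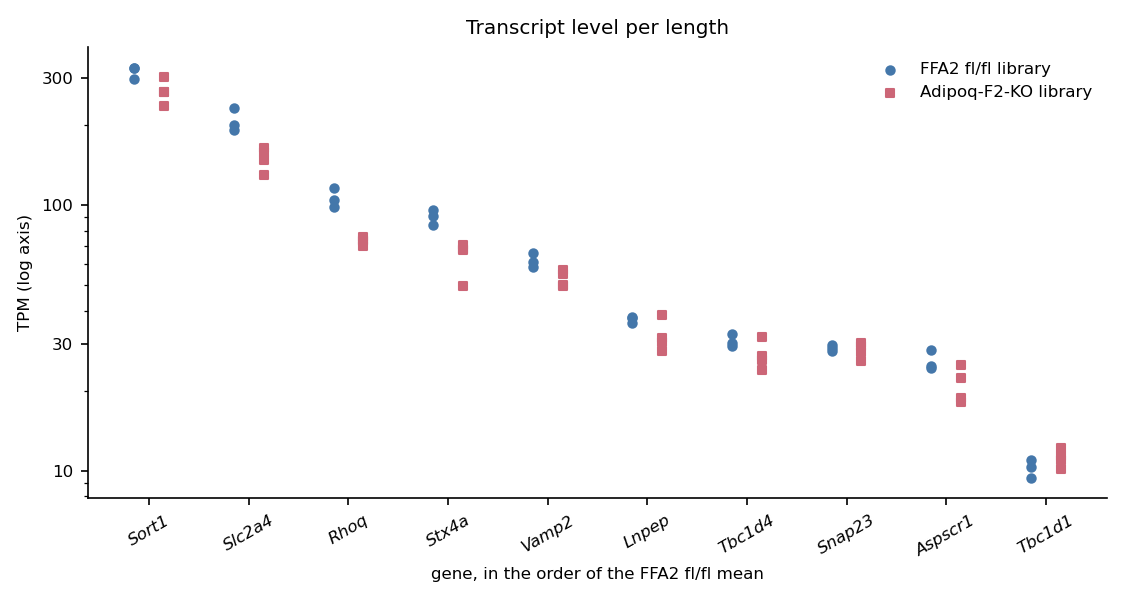
Transcript level per length (TPM, log axis) of each member in every library, with genes ordered by their FFA2 fl/fl mean, circles for FFA2 fl/fl and squares for Adipoq-F2-KO. The levels run from about 318 TPM for Sort1 to 10.2 TPM for Tbc1d1 in the controls, and for Slc2a4, Rhoq, Stx4a and Vamp2 the squares lie below the circles.

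Because the adipocyte marker sum was lower in Adipoq-F2-KO (82.7% of FFA2 fl/fl, a log2 difference of -0.27), the members were also scaled to it. Slc2a4 then held 3.28, 3.24 and 3.57 per 1000 normalized CPM of markers in FFA2 fl/fl and 3.33, 2.89, 3.14 and 3.42 in Adipoq-F2-KO, and the genotypes overlapped. Rhoq held 2.28, 1.99 and 1.93 against 1.79, 1.72, 1.80 and 2.21 and overlapped through library 4. Stx4a held 1.02, 0.974 and 1.00 against 0.946, 0.897, 0.959 and 0.893, and its genotypes did not overlap (exact permutation p = 0.0571, two-sided). Tbc1d1 and Snap23 did not overlap either, with Adipoq-F2-KO higher (exact permutation p = 0.0286 and 0.0571). Adjusted over the 12 ratios to markers, p was 0.229 for each of these genes. With the libraries scaled by this sum in edgeR, the log2 fold change was -0.07 for Slc2a4 (95% interval -0.30 to 0.15), -0.14 for Rhoq (-0.40 to 0.13) and -0.11 for Stx4a (-0.34 to 0.11). The call of Rhoq was lost (edgeR adjusted p = 0.493), and 0 of the 10 members were called, where 5.9% of all tested genes were. The 95% intervals of Tbc1d1 (0.18 to 0.90) and Snap23 (0.07 to 0.67) then lay above 0, and those of the other members spanned it. The intervals of Tbc1d1 and Snap23 included 0.29, the median of all tested genes under this scaling. The shares of all tested genes with such intervals, or without overlap in a ratio to markers, were not computed.

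Under this scaling the direction of 5 members turned, to log2 fold changes of 0.21 for Tbc1d4, 0.20 for Lnpep, 0.14 for Sort1, 0.17 for Vamp2 and 0.09 for Aspscr1, while Tbc1d1 rose in estimate from 0.24 to 0.54 (edgeR adjusted p = 0.0690) and Snap23 from 0.09 to 0.37 (0.114). The scaling moved the median of all tested genes to 0.29, and relative to that median all members but Tbc1d1 and Snap23 remained lower. It also moved the share of higher calls among all genes from 78.6% of 173 to 98.8% of 1006. Car3 alone made up 30.7% of the marker sum. Slc2a4, Rhoq and Stx4a were the 3 members whose estimates stayed below 0.

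**Figure D3:**
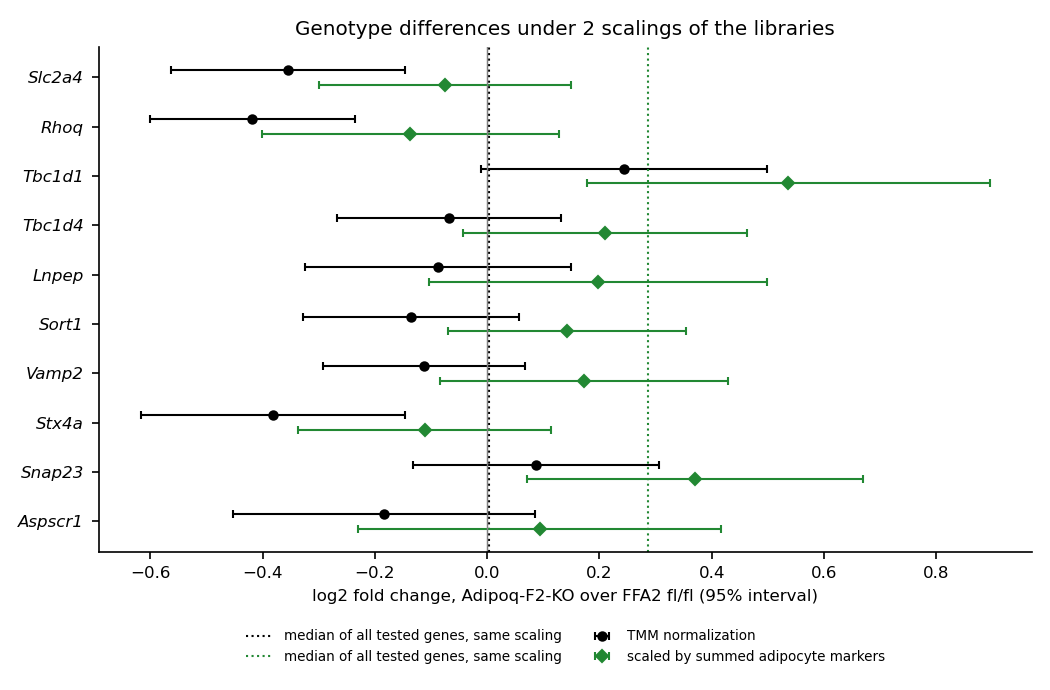
Log2 fold change of each member, Adipoq-F2-KO over FFA2 fl/fl, with its 95% interval, under TMM normalization (circles) and after scaling by the summed adipocyte markers (diamonds). Dotted lines mark the median of all tested genes under each scaling (0.00 and 0.29). Under TMM the intervals of Slc2a4, Rhoq and Stx4a lie below 0, and under the marker scaling they span it.

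Close relatives of Slc2a4 and Rhoq were called higher. Slc2a1 encodes GLUT1, the transporter of basal glucose uptake, which endothelial cells also express strongly. It held 30.3, 37.0 and 39.0 normalized CPM in FFA2 fl/fl and 49.6, 56.1, 59.6 and 72.8 in Adipoq-F2-KO, and it rose (log2 fold change 0.75, standard error 0.14, edgeR adjusted p = 0.0396). It was above all controls in 4 of 4 libraries. Rhoj encodes TCL, the GTPase nearest to TC10 in sequence and known in endothelial cells. It held 17.6, 22 and 22.8 normalized CPM against 28.9, 30.01, 32.5 and 33.5. It rose as well (log2 fold change 0.59, standard error 0.12, edgeR adjusted p = 0.0484), again above all controls in 4 of 4 libraries. Of the 17039 tested genes, 1510 lay above all controls in every Adipoq-F2-KO library. The call of Slc2a1 was kept without Adipoq-F2-KO library 1 (edgeR adjusted p = 0.0296) or 4 (0.0392) and lost without Adipoq-F2-KO library 2 (0.0639) or 3 (0.0713) and without FFA2 fl/fl library 1 (0.207), 2 (0.0738) or 3 (0.134). The call of Rhoj was lost whichever library was left out, with edgeR adjusted p from 0.0562 without Adipoq-F2-KO library 1 to 0.242 without FFA2 fl/fl library 1. The endothelial marker sum moved in the same direction. Per 1000 normalized CPM of endothelial markers, Slc2a1 was 19.9 ± 2.23 (SD, n = 3) against 24.2 ± 3.63 (SD, n = 4) and Rhoj 11.7 ± 1.26 against 12.9 ± 2.32, and the genotypes overlapped in either ratio (exact permutation p = 0.171 and 0.514, two-sided).

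The ratio of Slc2a4 to Slc2a1 within a library does not depend on the scaling of that library. In TPM it was 7.22, 6.05 and 6.57 in FFA2 fl/fl and 3.88, 3.08, 3.27 and 2.32 in Adipoq-F2-KO, so that GLUT4 transcripts outnumbered GLUT1 transcripts in every library and by less in Adipoq-F2-KO. In these libraries the adipocyte marker sum was 82.7% and the endothelial marker sum 140% of the FFA2 fl/fl mean. The part of this mix of cells in the ratios between genes was not tested. The ratio of Rhoq to Rhoj was 13.4, 9.69 and 9.40 against 5.54, 5.32, 5.33 and 5.04. The ratio of Rhoq to Cdc42, a small GTPase that most cells use, was 0.477, 0.434 and 0.446 against 0.316, 0.311, 0.287 and 0.312. In every Adipoq-F2-KO library, Slc2a4 and Rhoq lay below all controls, and Slc2a1, Rhoj and Cdc42 lay above them in normalized CPM. The genotypes could therefore not overlap in these 3 ratios, which restate the values of the single genes and add no separate evidence. On the log2 scale, each of these 3 ratios had the smallest exact permutation p that the design allows (0.0286). With Benjamini-Hochberg adjustment over the 14 ratios between genes, none was under 0.05 (adjusted p = 0.133, exact permutation test). However far apart the genotypes lie, 3 ratios at that smallest p cannot pass this adjustment, so it cannot decide the question. Cdc42 itself held 226, 224 and 220 normalized CPM against 231, 235, 276 and 248 and was not called (log2 fold change 0.15, edgeR adjusted p = 0.421).

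Within the machinery, the ratio of Slc2a4 to Rhoq was 1.96 ± 0.245 (SD, n = 3) against 2.04 ± 0.159 (SD, n = 4) and that to Stx4a was 2.29 ± 0.114 against 2.35 ± 0.188, and both overlapped. The ratios of Slc2a4 to Tbc1d1 (20.2 ± 0.891 against 13.5 ± 2.28), to Vamp2 (3.35 ± 0.141 against 2.84 ± 0.274), to Snap23 (7.18 ± 0.907 against 5.30 ± 0.723) and to Tbc1d4 (6.73 ± 0.794 against 5.54 ± 0.652) did not overlap, with exact permutation p of 0.0571 for the first 3 and 0.0857 for Tbc1d4. The transporter's transcript thus kept its proportion to Rhoq and Stx4a within the spread of the libraries, and stood lower relative to Tbc1d1, Tbc1d4, Vamp2 and Snap23 without passing the adjusted threshold. The ratios to Sort1 (0.650 ± 0.0504 against 0.561 ± 0.0542), Lnpep (5.60 ± 0.556 against 4.73 ± 0.912) and Aspscr1 (8.05 ± 1.17 against 7.17 ± 0.709) overlapped. The ratios of Vamp2 to its homologs Vamp3 (1.13 ± 0.0560 against 0.997 ± 0.115) and Vamp8 (1.25 ± 0.0492 against 1.33 ± 0.295) overlapped.

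**Figure D4:**
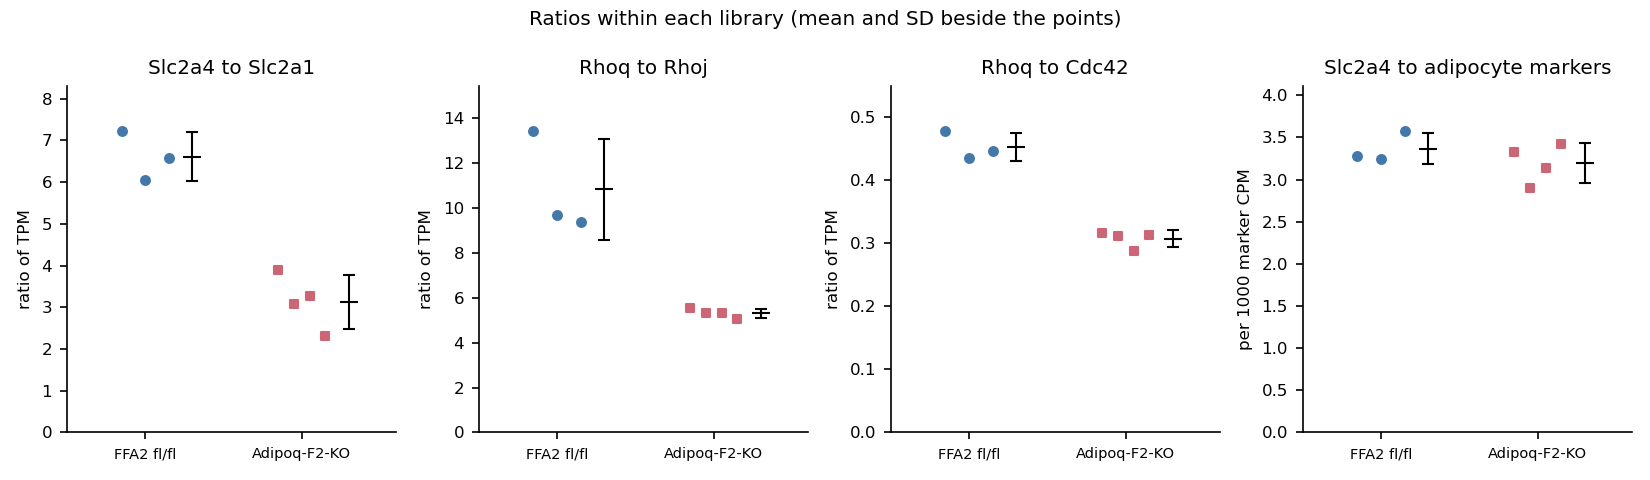
Ratios of TPM within each library for Slc2a4 to Slc2a1, Rhoq to Rhoj and Rhoq to Cdc42, and normalized CPM of Slc2a4 per 1000 normalized CPM of adipocyte markers, with mean and SD beside the points and vertical axes starting at 0. In the 3 ratios between genes the genotypes do not overlap, and relative to the adipocyte markers Slc2a4 overlaps.

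Over the 7 libraries, the genes whose log2 CPM followed Slc2a4 most closely among 13508 with a mean of at least 1 CPM were Nr1h3 (Pearson r = 0.993, Spearman rank correlation 0.964), Mmp28 (0.989), Trappc9 (0.988), Bcl7b (0.984) and 2210016L21Rik (0.983). Nr1h3 encodes the liver X receptor alpha. Of the other members, Stx4a was nearest to Slc2a4 (r = 0.930), followed by Rhoq (0.818), Vamp2 (0.745), Sort1 (0.666) and Aspscr1 (0.624), while Tbc1d4 (0.182) and Lnpep (0.0598) varied with little relation to it and Snap23 (-0.540) and Tbc1d1 (-0.718) ran opposite. The genes nearest to Rhoq were 4931406P16Rik (0.982), Tmem214 (0.980), Tcea2 (0.975), Pigg (0.974) and Gpx1 (0.973). These are descriptions over 7 libraries that include the difference between genotypes, and that share depth and marker content.

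Of 114 further genes of the pathway in 11 lists, 112 were tested, 48 of them above 0 and 64 below, with a median log2 fold change of -0.05. edgeR called 2 of the 112 higher (Slc2a1 and Rhoj) and 1 lower (Mlxipl), where 0.798% of all tested genes were called higher and 0.217% lower. DESeq2 called 12, namely Slc2a1, Rhoj, Mef2a and Mef2c higher and Mlxipl, Akt2, Hdac5, Klf15, Myo1c, Nr1h3, Slc2a8 and Trarg1 lower, where it called 5.77% of all genes. The lists without a call by edgeR are therefore given with their counts at an unadjusted p under 0.05, which 10.5% of all tested genes reached as higher and 7.37% as lower.

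Among 7 other proteins of storage and recycling vesicles, edgeR called 0, with 1 higher and 1 lower at an unadjusted p under 0.05. Trarg1, a regulator of GLUT4 trafficking found in fat, held 548 to 669 normalized CPM in FFA2 fl/fl and 390 to 525 in Adipoq-F2-KO without overlap (log2 fold change -0.42, edgeR adjusted p = 0.113). Tfrc, the transferrin receptor of recycling endosomes, held 17.5 to 29.0 against 27.1 to 48.4 and overlapped. Among 18 Rab and Ral GTPases and their regulators, 12 were above 0 and 6 below, with 0 called and 2 higher at an unadjusted p under 0.05. These were Rab31 (22.3 to 24.5 against 24.7 to 33.4 normalized CPM) and Rab4b, at a low level (0.854 to 1.74 against 1.63 to 3.66). The exocyst, the tether that TC10 recruits, had 9 subunit genes with 0 called and 1 higher at an unadjusted p under 0.05, Exoc5 (27.8 to 32.9 against 29.9 to 41.2 normalized CPM, overlapping). Exoc6 was the next by p (log2 fold change 0.27, edgeR adjusted p = 0.311), and the median of the subunits was -0.09.

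In the TC10 branch itself, 0 of 8 genes of its activation and effectors were called by edgeR, and 1 was lower at an unadjusted p under 0.05. This was Flot1, encoding flotillin of lipid rafts, with 137 to 150 normalized CPM in FFA2 fl/fl and 91.0 to 136 in Adipoq-F2-KO (log2 fold change -0.31, edgeR adjusted p = 0.251). Flot2 held 143 to 153 against 124 to 137, and neither flotillin overlapped between genotypes. Of 7 SNARE regulators 0 were called, and the 1 at an unadjusted p under 0.05 was Stxbp3 (Munc18c), which binds syntaxin 4. Stxbp3 held 27.3 to 29.99 normalized CPM against 31.4 to 36.4 without overlap (log2 fold change 0.24, edgeR adjusted p = 0.245), an estimate above 0 where that of Stx4a was below. Napa, which helps to recycle SNARE complexes, had a log2 fold change of -0.13 (edgeR adjusted p = 0.487).

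Of 7 genes of motors and actin 0 were called, and 2 were lower at an unadjusted p under 0.05. Myo1c, the myosin that carries GLUT4 vesicles along cortical actin, held 792 to 852 normalized CPM against 608 to 708 (log2 fold change -0.28, edgeR adjusted p = 0.152). Actn4, an actin cross-linker, held 795 to 807 against 604 to 744 (log2 fold change -0.24, edgeR adjusted p = 0.233). Neither overlapped. Of 18 genes of sorting, retrieval and retention 0 were called and 3 were lower at an unadjusted p under 0.05, among them the adaptor Gga1 (log2 fold change -0.31, edgeR adjusted p = 0.171) and the SNARE Vti1a (-0.26, edgeR adjusted p = 0.191).

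Of 10 genes from the insulin receptor to AKT 0 were called and 1 was lower at an unadjusted p under 0.05. This was Akt2, the AKT isoform of insulin-stimulated glucose uptake, with 418, 439 and 446 normalized CPM in FFA2 fl/fl and 356, 338, 383 and 320 in Adipoq-F2-KO. All 4 Adipoq-F2-KO libraries were below the controls (log2 fold change -0.32, standard error 0.09, edgeR adjusted p = 0.111). Pik3r1, the regulatory subunit of PI3-kinase, held 274 to 297 against 295 to 486 and overlapped. Of 10 regulators of Slc2a4 transcription, 1 was called lower, with 3 higher and 4 lower at an unadjusted p under 0.05. Mlxipl encodes ChREBP, a glucose-responsive transcription factor. It held 114, 130 and 134 normalized CPM in FFA2 fl/fl and 95.5, 88.6, 78.8 and 95 in Adipoq-F2-KO, without overlap, and it fell (log2 fold change -0.49, standard error 0.10, edgeR adjusted p = 0.0471). That call was kept without Adipoq-F2-KO library 4 (edgeR adjusted p = 0.0409) and lost without any other single library (0.0540 to 0.200) and with scaling by the adipocyte markers (log2 fold change -0.20, adjusted p = 0.379). Mef2c, of the MEF2 family that binds the Slc2a4 promoter, held 8.01 to 14.1 normalized CPM against 16.9 to 32.9 (log2 fold change 1.03, edgeR adjusted p = 0.0737). Its highest value was in library 4, where the endothelial sum was also highest, and a link between them was not tested.

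Among 7 other glucose transporters, Slc2a1 was the 1 called. Slc2a8 (GLUT8), an intracellular transporter, held 29.9 to 35.2 normalized CPM against 23.4 to 27.8 without overlap (log2 fold change -0.37, edgeR adjusted p = 0.113). Of 13 homologs of the members 11 were tested and Rhoj was the 1 called. Snap47, a homolog of Snap23, held 27.4 to 35.9 against 18.9 to 27.0 without overlap (log2 fold change -0.34, edgeR adjusted p = 0.244).

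**Figure D5:**
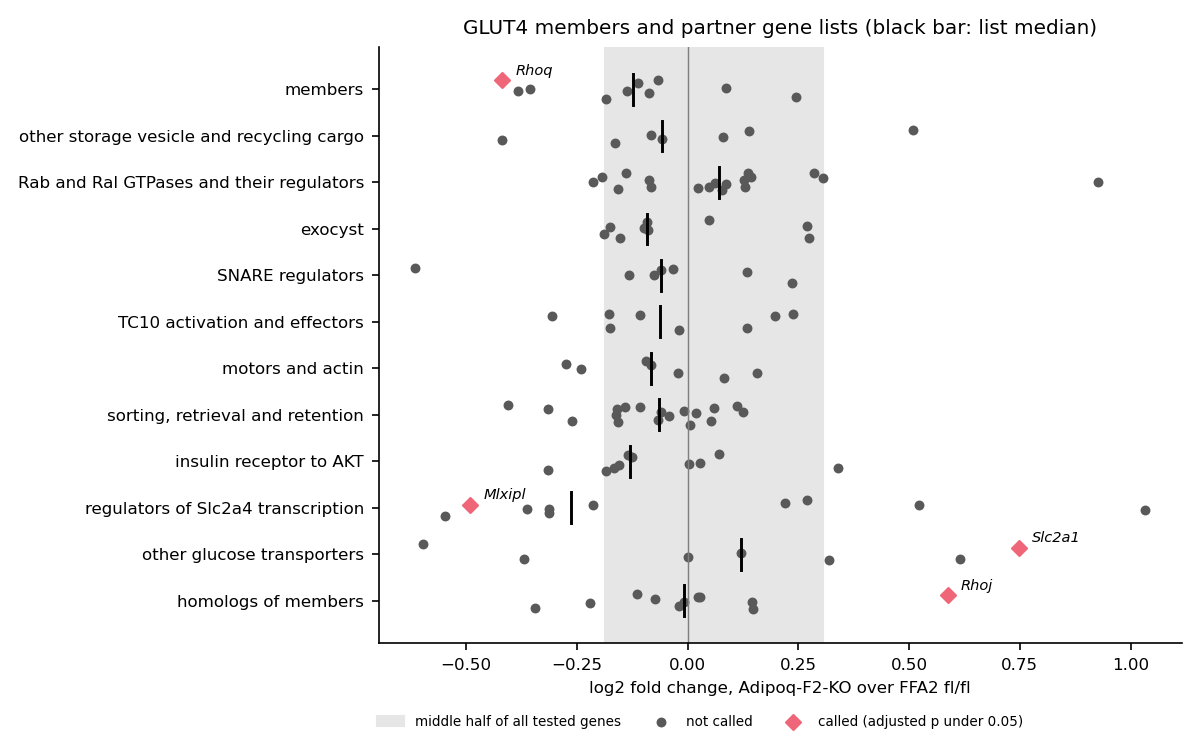
Log2 fold change, Adipoq-F2-KO over FFA2 fl/fl, of each tested gene (points) among the members and the 11 lists of partner genes, with a black bar at each list's median, diamonds for genes called by edgeR and a shaded band from the lower to the upper quartile of all tested genes (-0.19 to 0.31). Rhoq and Mlxipl were called lower, Slc2a1 and Rhoj higher, and the list medians lie between -0.26 and 0.12.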

How the data were processed

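The authors used Trimmomatic to trim, STAR to align and featureCounts to count the reads of each gene, from poly-A selected TruSeq stranded libraries sequenced as pairs of 150 bases. The deposited values are whole-number counts without normalization, with coordinates and summed exon lengths. Tool versions and the strand and overlap options are not given in the sources used here. The submitters' processing notes name GRCm38 and mm10, but only 1460 of 52029 matched identifiers (57010 in all) start where they do in GRCm38, so locations are given as the table has them, and RefSeq windows in GRCm38.p6 stand apart from them. Between 85.5% and 88.8% of low counts (1 to 49) were even, as when both mates are counted.

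The 7 libraries were grouped by the genotype of the labels, 3 against 4. After filterByExpr and TMM normalization, the quasi-likelihood test of edgeR 4.0.16 (R 4.3.3) was run (genotype only, two-sided, Benjamini-Hochberg over 17039 genes, called at an adjusted p under 0.05). A standard error is the absolute estimate divided by the root of F. Alternatives were DESeq2 1.42.0 (the study's tool), limma voom 3.58.1, other scalings and filters, and leaving out each library. The scripts were tested on simulated data, in which DESeq2 made more false calls than edgeR or limma voom. Those counts were drawn with the spread that edgeR had fitted. They therefore cannot decide whether a call by DESeq2 in the real libraries is false. Libraries of a genotype differed by more than sampling noise (41.5 to 165 chi-square units per degree of freedom), so each counted as 1 replicate. All columns of counts were used.

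The members, the lists of partner genes and markers and the tests were chosen with earlier results of these data known. The text names the 10 members, Ffar2, called partner genes, the 2 genes of smallest p in each list, the close homologs, and the 5 genes most correlated with Slc2a4 and with Rhoq. The partner genes that DESeq2 called are named beside their count and were chosen after their values were seen. Scaling by the geometric mean of the adipocyte markers and the ratios to endothelial markers were added after seeing the data. Vamp7 had no matching identifier.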

Additional observations from a re-analysis of the deposited data

How the results depend on the processing

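Among all genes, 173 calls became 1006 with scaling by the summed adipocyte markers, 455 with their geometric mean, 984 with DESeq2, 1403 of 28515 with genes of at least 1 count, and 1 to 178 when 1 library was left out. Of the members, 1 was called, against 3 (Rhoq, Slc2a4 and Stx4a) with DESeq2 and with genes of at least 1 count, 0 with either marker scaling and 0 to 1 without a library. Of the partner genes, 3 were called, against 8, 12 and 11 with the summed markers, DESeq2 and genes of at least 1 count, and 0 to 2 without a library. Slc2a4 passed the threshold with DESeq2 (-0.35) and with genes of at least 1 count (-0.36). The call of Rhoq was lost with the summed (-0.14) and geometric (-0.11) marker scaling and without 6 of the 7 libraries (-0.45 to -0.37). With the geometric mean, as with the sum, Tbc1d4 (0.24 and 0.21), Lnpep (0.23 and 0.20), Sort1 (0.17 and 0.14), Vamp2 (0.20 and 0.17) and Aspscr1 (0.11 and 0.094) turned above 0. The cause of these changes was not tested. The size factors of DESeq2, limma voom and leaving out mitochondrial genes with the most abundant gene kept each of these 3 counts within 1.5 times. With CPM in place of TPM, 5 members stood at another rank of level.

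Replicate numbers gave no sign of pairing. The deviations of libraries with the same number in the 2 genotypes correlated at 0.0315, -0.0242 and -0.0203, within the range of the other pairs (-0.0957 to 0.0861). So few correlations cannot exclude a pairing by litter or cage, which the labels do not give. With the replicate number as a block, 224 genes were called in all, 0 members (Rhoq -0.43, edgeR adjusted p = 0.0582) and 1 partner gene. Adipoq-F2-KO library 4 stood alone in its block and so added nothing to the genotype estimate, which for Rhoq was also -0.43 when that library was left out.

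Exact permutation tests of 3 against 4 libraries cannot give a p under 0.0286. Most log2 standard errors of the members were near 0.1, so that differences of the size seen for Lnpep or Snap23 were not detectable with these libraries. The least covered member, Tbc1d1, had 878 to 1034 counts per library, and the effect of depth was not tested.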
